A study of Mus musculus with 6 samples.

Results

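The conjugating enzymes examined here were the glutathione S-transferase (GST), microsomal glutathione S-transferase (MGST), UDP-glucuronosyltransferase (UGT) and cytosolic sulfotransferase (SULT) genes of mouse small intestinal organoids. Members were the protein-coding rows of the deposited expression table whose symbols follow the naming pattern of these families. This gave 54 genes of 21397 in the table, with 23 soluble GST genes, 3 MGST genes, 19 UGT genes of the UGT1 and UGT2 families and 9 SULT genes. Organoids grown from crypts of Fpr2 f/f mice were cultured for 5 days with the peptide MMK-1, an agonist of formyl peptide receptor 2 (FPR2), or with its vehicle, 0.1% DMSO, and each group had 3 libraries. The Fpr2 alleles of both groups were floxed on a C57BL/6J background and no Cre was named for these organoids. The mice were 8 to 12 weeks old, and each sample held organoids of 3 mice. The protocol gave a dose of 1 μmol/L MMK-1, whereas the treatment label of the same samples gave 1 mM. The study's statistics section speaks in general of independent experiments, but the labels do not say whether these samples came from separate cultures. The p-values measure only the spread between these samples, which may be technical.

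These enzymes carry out the conjugation phase of detoxification. GSTs attach glutathione to electrophilic compounds, UGTs attach glucuronic acid from UDP-glucuronic acid, and SULTs attach sulfate from the donor 3′-phosphoadenosine 5′-phosphosulfate (PAPS). In the intestine they are known mainly from absorptive enterocytes, where they meet dietary compounds, drugs, bile acids and steroids before these reach the liver.

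Levels are given as FPKM, in which fragments are scaled by gene length and library size, so that levels of different genes can be set side by side. Each library held between 35512741 and 37537465 fragments. Of the 54 members, 37 had a mean FPKM of at least 1 and were tested with limma on log2(FPKM + 1), 15 were above 0 but under this minimum, and 2 were at 0 in all 6 libraries. Fold changes on this log2 scale understate the change of genes with low FPKM. With MMK-1, 31 of the 37 tested members were lower with a Benjamini-Hochberg adjusted p that did not exceed 0.05, where 24.7% of all 10551 genes tested were lower by the same rule. Only Gstm5 and Gstt1 were higher at this threshold, where 48.5% of all genes tested were higher. Gstt2, Gstt3, Sult1c2 and Ugt1a6a did not pass the test.

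By the rule of a 2-fold change together with an unadjusted p not above 0.05, 18 tested members were lower, where 3.65% of all genes tested were lower. No member was higher by this rule in the limma test, where 3.39% of all genes were, and Gstm5 and Gstt1 were the 2 with an unadjusted p not above 0.05 and a higher level. Control and MMK-1 values were apart, with MMK-1 lower, in 31 tested members, against 26.3% of all genes. They were apart, with MMK-1 higher, in Gstm5 and Gstt1, against 50.5% of all genes. The median log2 fold change was -0.95 over the 37 tested members and 0.13 over all genes tested. With 3 libraries in each group, an exact two-sided permutation test of a single gene cannot give a p below 0.1, which every member without overlap reached.

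**Figure D1:**
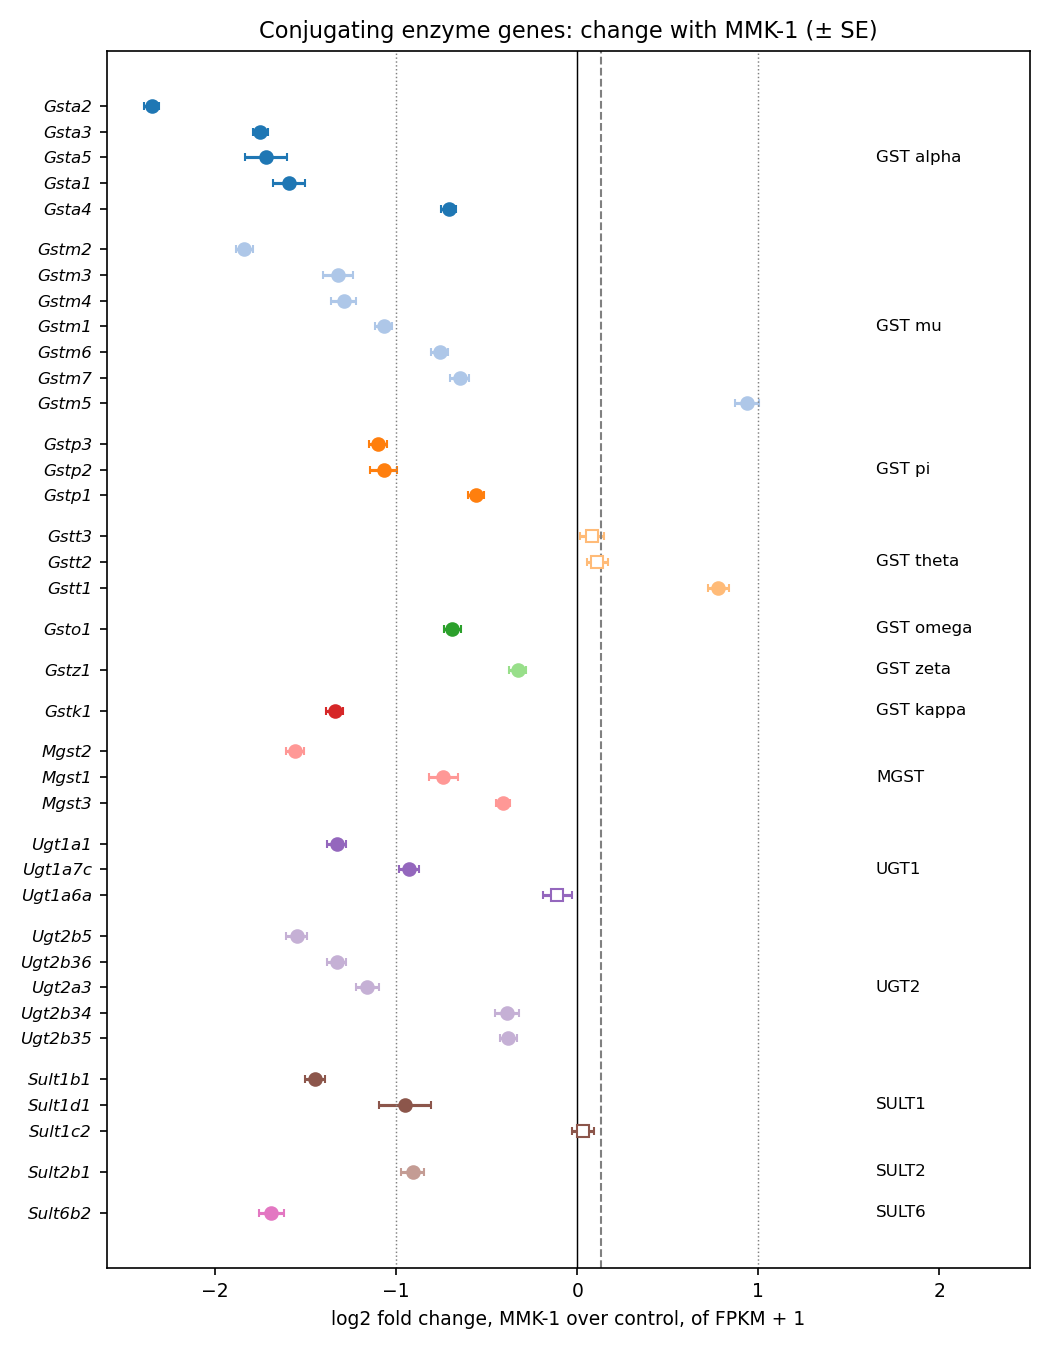
Log2 fold change of FPKM + 1, MMK-1 over control, for the 37 tested members by family, with the standard error of the limma fit as bars. Filled circles passed an adjusted p of 0.05 and open squares did not, dotted lines mark a 2-fold change and the dashed line marks the median of all genes tested, 0.13. Most members lie left of 0, and Gstm5 and Gstt1 lie to its right.

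The summed FPKM of all 54 members was 8201, 8415 and 8553 in control organoids and 4040, 4235 and 4274 in MMK-1-treated organoids. Members made up 1.80% to 1.84% of the FPKM of all genes in control organoids against 0.891% to 0.942% after MMK-1. The groups thus did not overlap, and the MMK-1 mean was 0.499 times the control mean. The mu class was the largest part of the control sum, with a mean of 3554 ± 25.2 (SD, n = 3), followed by the alpha class with 1806 ± 117 (SD, n = 3).

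**Figure D2:**
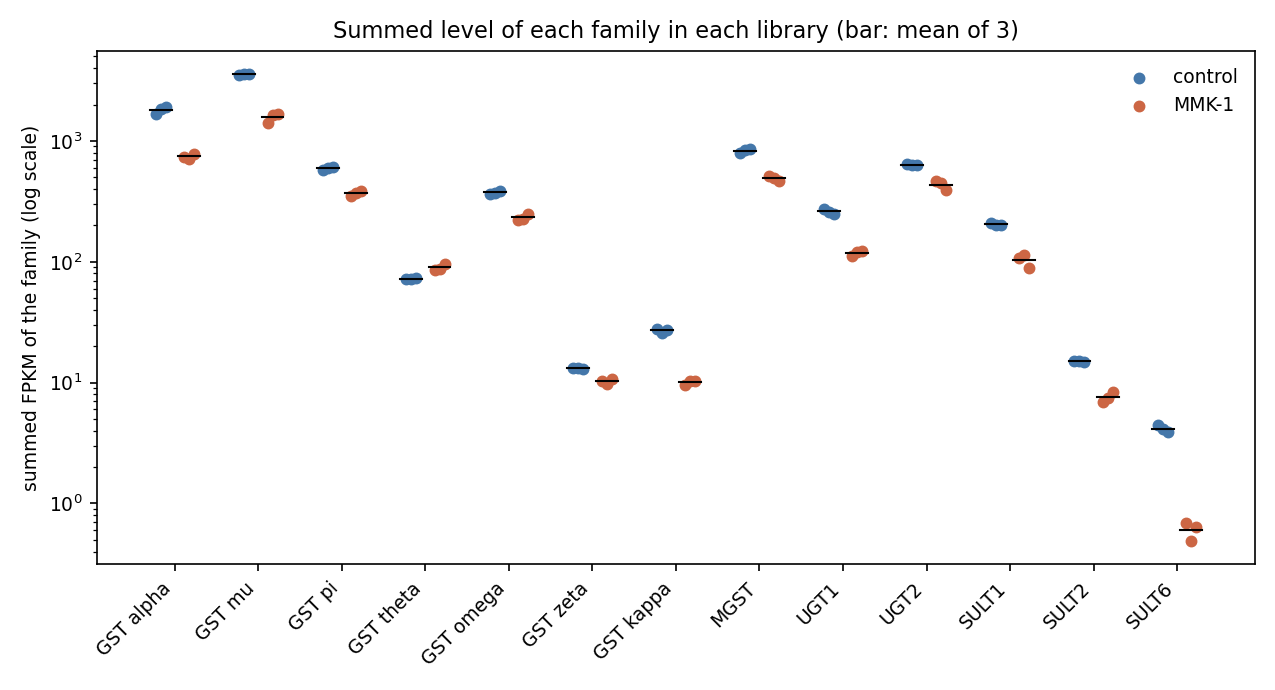
Summed FPKM of each family with a tested member (log scale), which leaves out SULT4 and SULT5, in each of the 3 control and 3 MMK-1 libraries, with a bar at the mean of each group. The sum was lower in all 3 MMK-1 libraries in every family shown except the theta class, whose sum was 71.5 to 73.1 in control organoids and 85.8 to 96.7 in MMK-1-treated organoids.

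Markers of the organoids' cell types moved between the groups as well. Of 20 enterocyte markers, 18 were lower and 2 were higher after MMK-1 by the adjusted p of limma, with a median log2 fold change of -1.08. Their summed FPKM lay between 11572 and 11673 in control organoids against between 6269 and 6686 after MMK-1. The members' sum amounted to 70.9%, 72.5% and 73.3% of the enterocyte marker sum in control organoids and to 63.3%, 67.5% and 63.9% in MMK-1-treated organoids. This ratio depends on Fabp1, the most abundant marker and 1 of the 2 that were higher. Fabp1 had 2161, 2238 and 2257 FPKM in control organoids and 2516, 2342 and 2659 in MMK-1-treated organoids. It thus made up a larger part of the marker sum after MMK-1, and the ratio without it was not computed. All 12 tested stem cell markers, all 10 tested Paneth cell markers and all 10 proliferation markers were higher with MMK-1. Of 11 tested enteroendocrine markers 8 were higher and none was lower, and of 10 goblet cell markers 7 were higher and 2 were lower. By the same adjusted p, 48.5% of all genes tested were higher and 24.7% were lower. The median log2 fold change was 0.43 for the enteroendocrine and 0.25 for the goblet cell markers, beside 0.13 over all genes tested. When every gene above 0 was tested, 3 of the higher markers no longer passed. They were Defa22 of the Paneth, Fabp1 of the enterocyte and Sct of the enteroendocrine list, with adjusted p of 0.057, 0.11 and 0.12 in limma. No tuft cell marker reached the FPKM minimum. The stem cell marker sum was between 103 and 105 FPKM in control and between 464 and 490 with MMK-1. The part of these shifts in the members' changes was not tested. In bulk RNA, fewer cells of a type and less RNA per cell cannot be told apart.

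Markers of cells outside the epithelium were low. The summed FPKM of 9 immune markers was 6.21 to 6.74 in control and 2.47 to 3.32 with MMK-1, and both tested genes, Cd68 and Itgam, were lower with log2 fold changes of -0.96 and -0.79. The leukocyte marker Ptprc had at most 0.00757 FPKM as a group mean. The mesenchyme marker sum was 4.80 to 5.37 in control and 3.51 to 5.15 with MMK-1. Hepatocyte markers were searched because these enzymes are abundant in liver. Their sum was 24.7 to 26.2 in control and 15.1 to 17.2 with MMK-1. Ttr, which made up most of it, was lower, with means of 21.95 and 12.2, and Serpina1b, the other tested marker, had means of 2.44 and 3.46, with an adjusted p in limma of 0.015 that was 0.067 when every gene above 0 was tested. Alb, the albumin gene of hepatocytes, had 0.0173 in control and 0.116 in MMK-1 libraries. The part of these markers in the members' changes was not tested.

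The alpha class GSTs detoxify products of lipid peroxidation and bind bilirubin and bile acids. All 5 members were lower with MMK-1, 4 of them past 2-fold. Gsta2 had 122, 114 and 118 FPKM in control organoids against 22.6, 21.8 and 22.6 after MMK-1. Its log2 fold change was -2.35 ± 0.0415 (SE), with a limma adjusted p of 1.8e-09, and was the largest of any tested member with a pseudocount of 1. With a pseudocount of 0.1 and in limma-voom it was -2.40, and that of Sult6b2 was larger. The groups were far apart, and their means differed 5.29-fold.

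The promoter of Gsta2, the most strongly lowered alpha gene, is given from RefSeq on GRCm38.p6 at chr9:78347096-78347395, minus strand, from 250 bases before to 50 bases after the transcription start. Capitals mark the letters GCGTG, the core of the xenobiotic response element bound by the aryl hydrocarbon receptor.
Gsta2: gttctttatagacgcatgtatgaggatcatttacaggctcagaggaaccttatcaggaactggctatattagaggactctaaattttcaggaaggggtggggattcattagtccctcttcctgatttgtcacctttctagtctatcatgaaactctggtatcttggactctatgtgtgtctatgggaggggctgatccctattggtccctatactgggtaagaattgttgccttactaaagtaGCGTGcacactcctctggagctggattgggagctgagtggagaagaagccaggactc

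Gsta1 had 769, 915 and 982 FPKM in control organoids and 292, 275 and 316 in MMK-1-treated organoids, a log2 fold change of -1.59. Gsta3 had 178, 171 and 171 FPKM in control organoids against 49.2, 50.4 and 53.2 after MMK-1, a log2 fold change of -1.75. Gsta5, the least abundant alpha gene, had 13.7, 11.3 and 13.04 FPKM in control organoids and 3.83, 2.48 and 3.204 in MMK-1-treated organoids. In each of these 3 genes the lowest control value exceeded the highest MMK-1 value. Gsta5 is named Gm10639 in the RefSeq table for the same gene number.

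Gsta4, whose enzyme is known for its activity on 4-hydroxynonenal, a product of lipid peroxidation, changed less than its relatives. It had 598, 615 and 628 FPKM in control organoids against 371, 366 and 390 after MMK-1, a log2 fold change of -0.71. The ratio of Gsta4 to Gsta2 within a library was 4.92, 5.40 and 5.31 in control and 16.5, 16.8 and 17.3 with MMK-1. Gsta4 made up 34.0% ± 1.41 (SD, n = 3) of the alpha class in control and 50.4% ± 0.726 with MMK-1, whereas Gsta1 made up 49.1% ± 2.92 and 39.4% ± 0.922.

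Single alpha genes are uncertain where they share sequence. Of the 100-base windows of the longest GENCODE transcript, 81.8% of those of Gsta1, 35.0% of those of Gsta2 and 30% of those of Gsta5 also occurred in transcripts of another gene, and Gsta3 and Gsta4 shared none. Gsta4, Gsta1, Gsta5 and Gsta2 lie together on chromosome 9, from 78191966 to 78347192 on GRCm38, and Gsta3 lies on chromosome 1.

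The mu class held the most abundant members. Gstm3 had 1719, 1728 and 1731 FPKM in control organoids and 594, 733 and 761 in MMK-1-treated organoids, a log2 fold change of -1.32 with an adjusted p of 1.7e-06 in limma. MMK-1 replicate 1 was the lowest of its group for this gene, and all MMK-1 values lay below all control values. Gstm1 had 1560, 1588 and 1594 FPKM in control organoids against 712, 777 and 775 after MMK-1, a log2 fold change of -1.07.

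Gstm2 fell most within the class, from 112, 113 and 115 FPKM to 28.8, 31.9 and 31.8, a log2 fold change of -1.84. Gstm4 had 43.2, 41.7 and 43.3 FPKM in control organoids and 15.1, 16.9 and 18.8 in MMK-1-treated organoids. The mean of Gstm2 differed 3.67-fold and that of Gstm4 2.53-fold between the groups. Gstm6 and Gstm7 fell by less than 2-fold, with log2 fold changes of -0.76 and -0.65.

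Gstm5 was the exception in this class. It had 8.97, 9.78 and 9.85 FPKM in control organoids against 17.8, 19.0 and 21.1 after MMK-1, a log2 fold change of 0.94 ± 0.0664 (SE) with an adjusted p of 3.1e-06 in limma. All MMK-1 values lay above all control values. The means differed 2.02-fold, and Gstm5 passed the 2-fold rule with a pseudocount of 0.1, with log2 fold changes of 1.01 there and in limma-voom on whole fragments. The ratio of Gstm5 to Gstm2 within a library, which no scaling between libraries affects, was 0.0805, 0.0869 and 0.0856 in control and 0.616, 0.597 and 0.664 with MMK-1. Gstm5 made up 0.268% ± 0.0118 (SD, n = 3) of the mu class in control and 1.23% ± 0.0551 with MMK-1.

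All 7 mu genes lie in 1 cluster on chromosome 3, from 107895854 to 108045179 on GRCm38, in the order Gstm5, Gstm7, Gstm6, Gstm3, Gstm2, Gstm1 and Gstm4. The log2 fold change of the gene at the start of the cluster was thus positive and those of its 6 neighbours were negative. Gstm5 and Gstm7 shared no 100-base window with another gene's transcripts, and Gstm3 shared 13.8% of its windows and Gstm1 7.73%.

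The promoters of Gstm5 and Gstm2 are given because these genes of 1 cluster differed most in their change. They are from RefSeq on GRCm38.p6, at chr3:107895604-107895903 on the plus strand for Gstm5 and chr3:107986371-107986670 on the minus strand for Gstm2. Capitals mark, on either strand, TGACNNNGC, the antioxidant response element bound by NRF2, GCGTG, and TTTATG, a site of the intestinal factor CDX2. In Gstm5 the TGACNNNGC match and 1 of the 2 GCGTG matches overlap, the latter read on the opposite strand.
Gstm5: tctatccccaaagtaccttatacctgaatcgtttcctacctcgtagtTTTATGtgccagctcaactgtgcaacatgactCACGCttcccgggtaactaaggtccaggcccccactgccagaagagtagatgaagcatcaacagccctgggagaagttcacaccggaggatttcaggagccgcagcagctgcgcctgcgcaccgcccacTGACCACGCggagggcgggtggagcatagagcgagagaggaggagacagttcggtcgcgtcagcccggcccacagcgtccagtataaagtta
Gstm2: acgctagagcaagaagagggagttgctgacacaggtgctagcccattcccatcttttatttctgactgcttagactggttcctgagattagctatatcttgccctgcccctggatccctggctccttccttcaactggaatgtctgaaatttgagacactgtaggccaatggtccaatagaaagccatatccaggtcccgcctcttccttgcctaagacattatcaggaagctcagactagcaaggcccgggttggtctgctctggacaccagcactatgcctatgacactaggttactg

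No searched motif was found in the Gstm2 window, which says only that these letters are not in it. Of the 54 members, 50 had a promoter in this table. The letters TGACNNNGC occurred in 12.4% of all 32851 promoters, in a promoter of 14% of the 27025 genes and in those of 8% of the 50 members, which were the 4 genes Gsta3, Gstm5, Gstm7 and Mgst1. GCGTG occurred in 32.4% of all promoters, with 35.2% of genes and 24% of members. TTTATG occurred in 11.9% of all promoters, with 13.6% of genes and 12% of members. Of the members with TGACNNNGC, Gstm5 was higher with MMK-1 and the other three were lower.

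**Figure D3:**
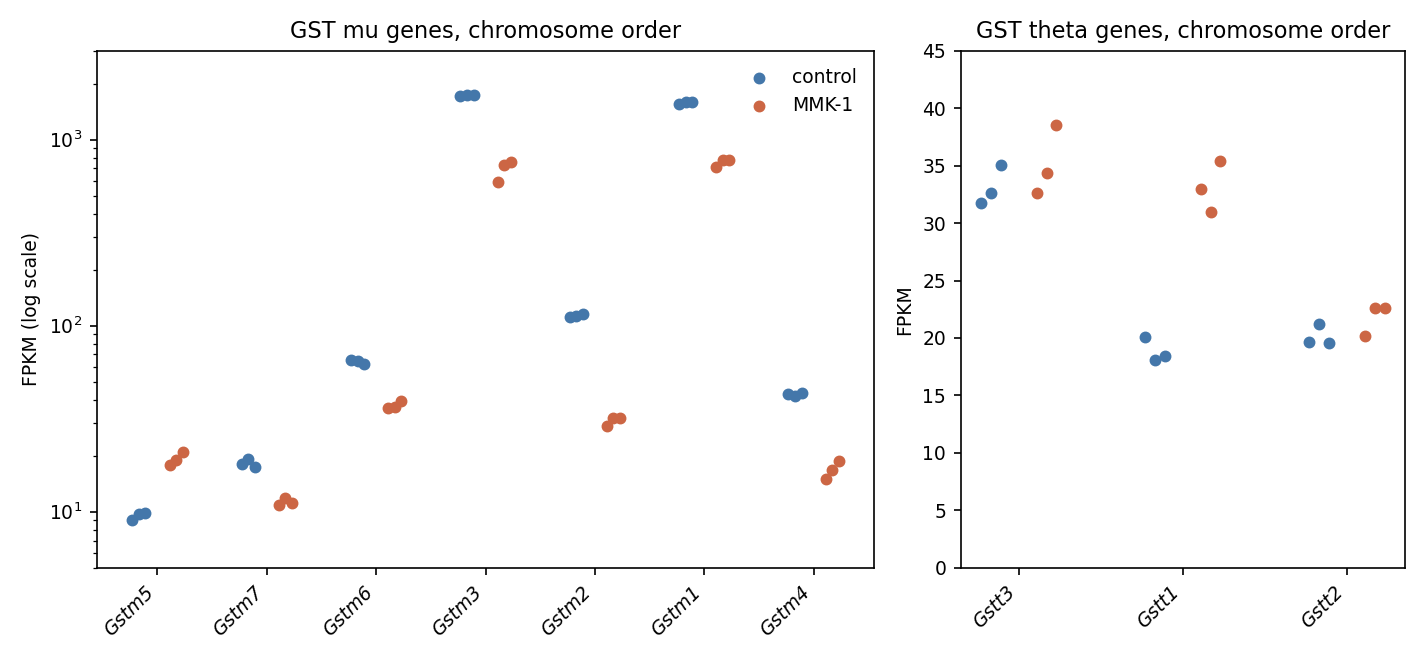
FPKM in each of the 3 control and 3 MMK-1 libraries for the 7 mu genes (left, log scale) and the 3 tested theta genes (right, linear scale from 0), in their order along chromosomes 3 and 10. Gstm5 was higher with MMK-1 than in control and the other mu genes were lower, and in the theta class only the values of Gstt1 separated the groups.

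The theta class, which acts on small halogenated compounds among others, was the only class without a member that was lower. Gstt1 had 20.1, 18.1 and 18.4 FPKM in control organoids and 33.0, 31.0 and 35.4 in MMK-1-treated organoids. Its log2 fold change was 0.78 ± 0.0602 (SE), with an adjusted p of 5.3e-06 in limma, and its groups did not overlap. Gstt2 had 19.7, 21.2 and 19.6 FPKM in control organoids against 20.2, 22.6 and 22.6 after MMK-1, and did not pass the test (adjusted p of 0.12 in limma). Gstt3 had 31.8, 32.6 and 35.1 FPKM in control organoids and 32.6, 34.3 and 38.5 in MMK-1-treated organoids, with an adjusted p of 0.30 in limma.

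The groups overlapped in both Gstt2 and Gstt3, and the signs of their log2 fold changes, 0.11 and 0.08, turned when libraries were scaled by their upper quartile. Without MMK-1 replicate 1, Gstt2 passed as higher (0.16, adjusted p of 0.028 in limma). The ratio of Gstt1 to Gstt3 within a library was 0.631, 0.555 and 0.525 in control and 1.01, 0.903 and 0.920 with MMK-1. Gstt4 had at most 4 fragments in any library. The 4 theta genes lie together on chromosome 10, from 75774117 to 75837419 on GRCm38.

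The promoter of Gstt1, the other member that was higher, is given from RefSeq on GRCm38.p6 at chr10:75797682-75797981, minus strand. It holds none of the motifs searched and so has no capitals.
Gstt1: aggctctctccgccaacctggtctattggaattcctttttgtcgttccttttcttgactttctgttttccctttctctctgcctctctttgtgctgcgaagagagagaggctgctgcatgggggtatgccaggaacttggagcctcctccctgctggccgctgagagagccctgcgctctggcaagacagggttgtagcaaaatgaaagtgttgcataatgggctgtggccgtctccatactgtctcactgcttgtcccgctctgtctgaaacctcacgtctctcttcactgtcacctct

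The pi class, with broad activity on electrophiles, was lower in all 3 genes. Gstp1, its most abundant gene, had 419, 443 and 451 FPKM in control organoids against 286, 297 and 310 after MMK-1, a log2 fold change of -0.56. Gstp3 had 50.3, 50.3 and 49.8 FPKM in control organoids and 22.8, 21.5 and 24.4 in MMK-1-treated organoids, a log2 fold change of -1.10. Gstp2 had 103, 100.3 and 113 FPKM in control organoids against 44.6, 54.6 and 49.5 after MMK-1. Gstp1 and Gstp2 lie next to each other on chromosome 19 and shared 52.8% and 63.5% of their windows with another gene, so that the split of fragments between them is uncertain. Gstp3 shared none.

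The remaining soluble classes were each represented by 1 tested gene. Gstk1, whose enzyme is found in mitochondria and peroxisomes, had 27.8, 26.0 and 27.3 FPKM in control organoids and 9.54, 10.3 and 10.3 in MMK-1-treated organoids, a log2 fold change of -1.34. Gsto1, an omega class enzyme that reduces dehydroascorbate and arsenic compounds, had 367, 372 and 387 FPKM in control organoids against 223, 227 and 248 after MMK-1, a log2 fold change of -0.69. Gstz1, the maleylacetoacetate isomerase of tyrosine breakdown, changed least of the soluble GSTs that were lower, from 13.3, 13.2 and 13.1 to 10.4, 9.78 and 10.8 FPKM. Its log2 fold change was -0.33 with an adjusted p of 0.00023 in limma.

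Gsto2, the other omega gene, was under the FPKM minimum. It had 39, 23 and 36 fragments in control organoids and 2, 6 and 2 in MMK-1-treated organoids. The groups did not overlap at these few fragments.

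The microsomal GSTs are membrane enzymes unrelated in sequence to the soluble classes, and all 3 were lower. Mgst2, which can form leukotriene C4, had 152, 163 and 167 FPKM in control organoids against 53.5, 52.1 and 56.2 after MMK-1, a log2 fold change of -1.56. Mgst3 had 255, 260 and 257 FPKM in control organoids and 190, 193 and 199 in MMK-1-treated organoids, a log2 fold change of -0.41. The ratio of Mgst3 to Mgst2 within a library was 1.67, 1.59 and 1.54 in control and 3.55, 3.71 and 3.54 with MMK-1. Mgst1 had 394, 413 and 429 FPKM in control organoids against 273, 252 and 215 after MMK-1, a log2 fold change of -0.74.

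The UGT1 genes form a single locus on chromosome 1, from 88055411 to 88220002 on GRCm38, in which each gene has a first exon of its own and all share the downstream exons. Transcripts therefore overlap, and between 57.2% and 100% of the windows of each UGT1 gene also occurred in another gene. FPKM of single UGT1 genes are uncertain for this reason. Of the 9 genes, 3 were tested and the other 6 had at most 85 fragments in any library.

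Ugt1a1, the bilirubin-conjugating enzyme, had 159, 153 and 146 FPKM in control organoids and 56.3, 61.2 and 62.1 in MMK-1-treated organoids. Its log2 fold change was -1.33 ± 0.0511 (SE), with an adjusted p of 9e-08 in limma. Ugt1a7c had 111, 104 and 102 FPKM in control organoids against 51.6, 55.2 and 57.8 after MMK-1, a log2 fold change of -0.93. Both genes had groups that did not overlap. The ratio of Ugt1a7c to Ugt1a1 within a library was 0.7, 0.683 and 0.699 in control and 0.917, 0.903 and 0.931 with MMK-1.

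Ugt1a6a, a phenol-conjugating enzyme, had 2.30, 2.54 and 2.09 FPKM in control organoids and 2.01, 2.34 and 1.84 in MMK-1-treated organoids. Its groups overlapped and it did not pass the test, with a log2 fold change of -0.11 and an adjusted p of 0.22 in limma. With the trend on GC content removed it passed as lower, with a log2 fold change of -0.29 and an adjusted p of 0.0065 in limma. All of its windows occurred in another gene of the locus. Ugt1a9 had 52, 46 and 63 fragments in control organoids against 55, 85 and 83 after MMK-1, with overlapping groups.

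The promoter of Ugt1a1, the most abundant UGT1 gene, is given from RefSeq on GRCm38.p6 at chr1:88211709-88212008, plus strand, with the letters GTTAAT, a partial site of the hepatocyte nuclear factor HNF1, in capitals as read on the opposite strand. These letters occurred in 7.10% of all promoters, with 8.24% of genes and 16% of members. Of these 8 members, 4 are UGT1 genes, Ugt1a1, Ugt1a10, Ugt1a6a and Ugt1a9. The letters CAAAGTCCA, a site of HNF4, occurred in 0.475% of all promoters, with 0.555% of genes and 2% of members, namely Sult1b1.
Ugt1a1: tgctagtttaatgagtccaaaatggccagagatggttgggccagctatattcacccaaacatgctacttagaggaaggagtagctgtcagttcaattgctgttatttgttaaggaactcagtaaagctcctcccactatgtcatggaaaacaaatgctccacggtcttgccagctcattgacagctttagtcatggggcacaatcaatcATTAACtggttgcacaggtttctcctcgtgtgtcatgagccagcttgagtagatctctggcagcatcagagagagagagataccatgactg

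The UGT2 genes, which conjugate steroids, bile acids and many drugs, lie on chromosome 5 from 86889770 to 87490871 on GRCm38. All 5 tested genes were lower, 3 of them past 2-fold. Ugt2b5 had 42.4, 40.4 and 40.7 FPKM in control organoids and 14.0, 12.2 and 14.1 in MMK-1-treated organoids, a log2 fold change of -1.55. Ugt2b36 had 26.9, 26.2 and 26.0 FPKM in control organoids against 9.58, 9.44 and 10.6 after MMK-1, a log2 fold change of -1.33. Ugt2a3 had 71.1, 73.2 and 76.4 FPKM in control organoids and 34.7, 33.0 and 29.4 in MMK-1-treated organoids, a log2 fold change of -1.16. In all 3 genes the groups were apart. Ugt2b5 shared 24.7% of its windows with another gene, and Ugt2b36 shared none.

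Ugt2b34, the most abundant UGT gene, fell less. It had 444, 438 and 433 FPKM in control organoids against 361, 349 and 298 after MMK-1, a log2 fold change of -0.39 with an adjusted p of 0.00075 in limma. Ugt2b35 had 56.2, 54.3 and 55.0 FPKM in control organoids and 43.6, 43.7 and 39.5 in MMK-1-treated organoids, a log2 fold change of -0.38. With the trend on GC content removed, the log2 fold changes of these genes were -0.76 and -0.73. Ugt2b34 made up 69.0% ± 0.395 (SD, n = 3) of the UGT2 sum in control and 77.3% ± 1.09 with MMK-1, while the sum itself was 635 ± 5.33 and 434 ± 37.1 FPKM. Of the 5 UGT2 genes under the minimum, Ugt2a2 was at 0 in all libraries and the other four had at most 19 fragments in any library.

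Sult1b1 and Sult1d1 lie beyond the UGT2 genes on chromosome 5, and both were lower with MMK-1. Sult1b1, a sulfotransferase of phenols and thyroid hormones, had 78.4, 78.5 and 78.5 FPKM in control organoids against 28.1, 30.3 and 26.1 after MMK-1. Its log2 fold change was -1.45 ± 0.0543 (SE), with an adjusted p of 7.9e-08 in limma. Sult1d1, which sulfates catecholamines and other amines, had 108, 101 and 104 FPKM in control organoids and 60.4, 62.5 and 40.2 in MMK-1-treated organoids. MMK-1 replicate 3 was the lowest of its group, and the log2 fold change was -0.95 with it, -0.75 without it and -1.52 with the trend on GC content removed.

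Sult1c2, on chromosome 17, did not pass the test. It had 21.8, 20.2 and 19.2 FPKM in control organoids against 19.5, 21.1 and 21.9 after MMK-1, with overlapping groups and a log2 fold change of 0.03. The sign of this value was negative under upper-quartile scaling, and with the GC trend removed Sult1c2 passed as lower (-0.17, adjusted p of 0.039 in limma). The ratio of Sult1c2 to Sult1b1 within a library was 0.278, 0.258 and 0.244 in control and 0.694, 0.697 and 0.840 with MMK-1.

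Sult2b1, which sulfates cholesterol and other sterols, had 15.2, 15.1 and 14.7 FPKM in control organoids and 6.88, 7.43 and 8.32 in MMK-1-treated organoids, a log2 fold change of -0.91. Sult6b2 had 4.45, 4.12 and 3.90 FPKM in control organoids against 0.687, 0.491 and 0.621 after MMK-1. The groups were far apart, and the means differed 6.93-fold. The log2 fold change of Sult6b2 was -1.69 with a pseudocount of 1 and -2.61 with a pseudocount of 0.1, since its values lie near the pseudocount.

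Of the SULT genes under the minimum, Sult1a1 had 74, 62 and 44 fragments in control organoids and 29, 32 and 32 in MMK-1-treated organoids, with groups that did not overlap. Sult4a1 had 5, 11 and 12 fragments in control organoids against 23, 17 and 27 after MMK-1, and so was higher in all 3 MMK-1 libraries at few fragments. Sult6b1 had at most 2 fragments in any library, and Sult5a1 was at 0 in all 6, where a count of 0 allows up to 3 fragments in a library.

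The pairs for the ratios within a library were chosen with the members' changes known. Each sets a member beside one of its family with a lower log2 fold change, so the ratios are descriptions without a test.

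Genes that supply the cosubstrates were examined from fixed lists. Their counts stand beside 24.7% lower and 48.5% higher among all genes tested, with a median log2 fold change of 0.13. For UDP-glucuronic acid, 4 of 8 tested genes were lower and 3 were higher by the adjusted p of limma, with a median log2 fold change of -0.15. Ugdh, the dehydrogenase that forms UDP-glucuronic acid, had 269, 264 and 264 FPKM in control organoids and 120, 125 and 121 in MMK-1-treated organoids, a log2 fold change of -1.12. Slc35d2, a nucleotide sugar transporter, was lower with a log2 fold change of -0.73. Uxs1, which turns UDP-glucuronic acid into UDP-xylose, and Pgm2, a phosphoglucomutase, were higher with 0.53 and 0.43.

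For PAPS, 5 of 10 tested genes were lower and 5 were higher, where 24.7% and 48.5% of all genes were. Sts, 1 of the lower genes, had an adjusted p in limma of 0.018 that was 0.066 when every gene above 0 was tested. The 2 PAPS synthases went in opposite directions. Papss2 had 30.6, 30.3 and 29.9 FPKM in control organoids against 6.31, 5.66 and 6.23 after MMK-1, a log2 fold change of -2.15. Papss1 had 47.8, 47.6 and 47.2 FPKM in control organoids and 75.1, 72.2 and 71.9 in MMK-1-treated organoids, a log2 fold change of 0.61. The groups were apart for both synthases. Slc26a3, an anion exchanger, was lower with a log2 fold change of -0.62, and Bpnt2 and Suox were higher with 0.77 and 0.64. Bpnt2 had 22.13, 20.65 and 12.96 FPKM in the MMK-1 libraries, of which replicate 3 was the lowest, against a control mean of 10.18.

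For glutathione, 5 of 12 tested genes were lower and 7 were higher, with a median log2 fold change of 0.17, near the 48.5% higher and the median of 0.13 over all genes. Gclm, the modifier subunit of glutamate-cysteine ligase, had 77.7, 76.7 and 77.5 FPKM in control organoids against 39.3, 41.0 and 42.1 after MMK-1, a log2 fold change of -0.91. Slc3a2, the heavy chain of the cystine transporter, was lower with -0.49, whereas its light chain Slc7a11 was higher with 0.99. Chac2, which degrades glutathione, was the list's 1 tested gene past 2-fold on the log2(FPKM + 1) scale, with 10.3, 8.71 and 8.07 FPKM in control organoids and 25.6, 23.3 and 12.3 in MMK-1-treated organoids. MMK-1 replicate 3 was the lowest of its group for Chac2. The plain means of Slc7a11, 1.15 and 3.30 FPKM, differed 2.86-fold. Cbs, which makes cystathionine from homocysteine, was under the FPKM minimum, with 6, 5 and 13 fragments in control and 82, 117 and 105 with MMK-1.

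Export of conjugates and the mercapturate path, which trims glutathione conjugates to mercapturic acids, had 8 of 13 tested genes lower and 2 higher, with 5 lower past 2-fold and a median log2 fold change of -0.87. Of all genes tested, 24.7% were lower, 48.5% were higher and 3.65% were lower past 2-fold. Anpep, an aminopeptidase that is also an enterocyte marker on the list above, had 634, 619 and 616 FPKM in control organoids against 82.3, 84.6 and 90.8 after MMK-1, a log2 fold change of -2.84. Ggt1, the gamma-glutamyltransferase that starts the path, had 105, 105 and 107 FPKM in control organoids and 18.4, 19.6 and 22.03 in MMK-1-treated organoids, a log2 fold change of -2.35. Dpep1, a dipeptidase of the same path, had a log2 fold change of -2.23, and Slco2a1, a prostaglandin transporter, had -1.03. Abcc2, the apical exporter of glutathione and glucuronide conjugates, had 201, 201 and 198 FPKM in control organoids against 82.1, 85.1 and 90.4 after MMK-1, a log2 fold change of -1.21. Abcc1 and Abcc4, 2 other exporters at lower levels, were higher with log2 fold changes of 0.63 and 0.27.

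Of the regulators of these genes, 6 of 22 tested were lower and 8 were higher, with a median log2 fold change of 0.06, where 24.7% and 48.5% of all genes were lower and higher. Ahr, 1 of the higher genes, had an adjusted p in limma of 0.022 that was 0.064 when every gene above 0 was tested. Nr1i3, the constitutive androstane receptor, had 66.8, 70.9 and 69.6 FPKM in control organoids and 22.6, 23.7 and 24.3 in MMK-1-treated organoids, a log2 fold change of -1.51. Ppara, a fatty acid receptor, was lower with -0.78. Foxa3 and Foxa2, forkhead factors, were higher with log2 fold changes of 1.27 and 1.01. Nfe2l2, the gene of NRF2, had 105, 99.6 and 101 FPKM in control organoids against 116, 108 and 90.4 after MMK-1, and did not pass the test (adjusted p of 0.72 in limma).

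**Figure D4:**
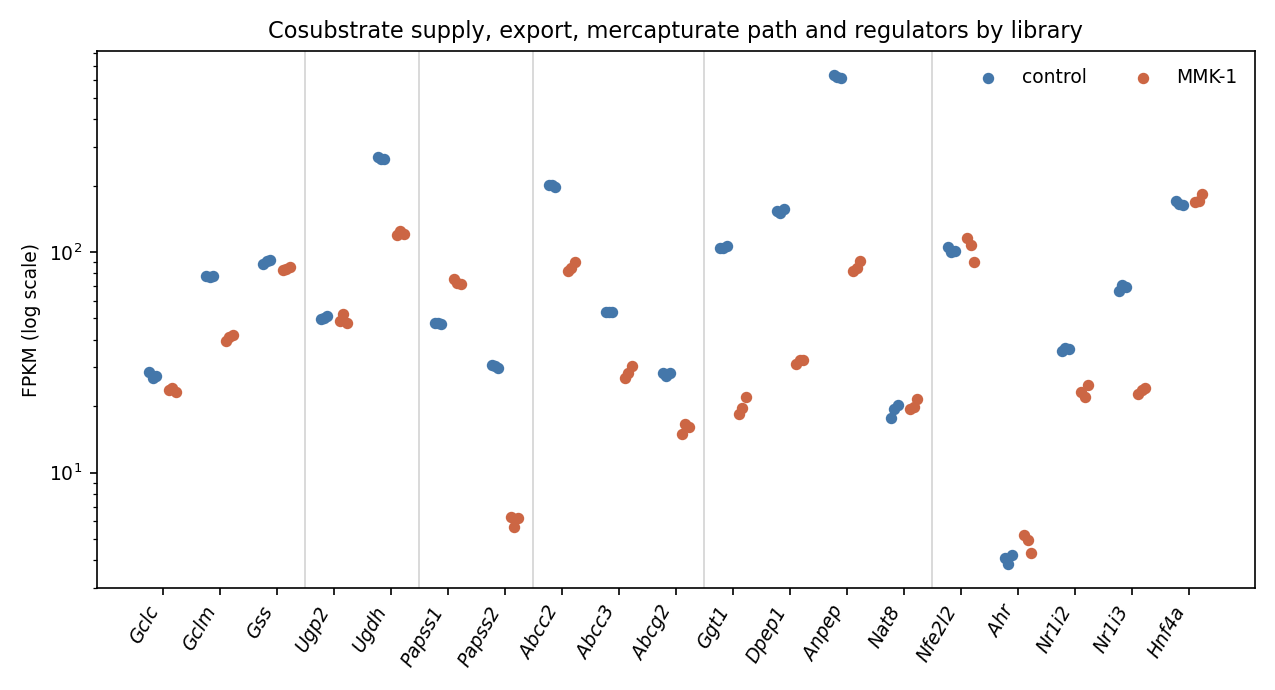
FPKM (log scale) in each of the 3 control and 3 MMK-1 libraries of genes for glutathione supply, UDP-glucuronic acid supply, PAPS supply, export, the mercapturate path and regulation, separated by vertical lines in this order. Papss2, Ggt1, Dpep1 and Anpep show the widest gaps between the groups, and Papss1 lies higher with MMK-1.

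Among other conjugating enzymes, which acetylate, methylate or add amino acids, Nat2, an acetyltransferase, was lower with a log2 fold change of -0.32. Its adjusted p in limma was 0.023, but 0.09 when every gene above 0 was tested. As3mt, the arsenite methyltransferase, and Tpmt, a thiopurine methyltransferase, were higher with log2 fold changes of 0.89 and 0.24. Relatives of the GSTs and UGTs that are named otherwise had 2 of 7 tested genes lower and 5 higher, where 24.7% and 48.5% of all genes were. Among them, the chloride channel relatives Clic6 and Clic4 were higher with log2 fold changes of 1.31 and 1.15, and Clic5 and Ltc4s, the leukotriene C4 synthase, were lower with -1.21 and -0.68.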

How the data were processed

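RNA-seq libraries were prepared with the VAHTS Universal V10 kit and sequenced as 150-bp paired-end reads. The authors deposited FPKM values, fragments scaled by gene length and library size, for 21397 genes. The submitters' processing notes name HISAT2, HTSeq, R 3.2.0, DESeq2 and the build mm10, without their roles, and strandedness is not given in the sources used here. FPKM are not counts, and limma 3.58.1 (R 4.3.3) was run with a trend on log2(FPKM + 1), that is, with a pseudocount of 1. Genes entered where their FPKM averaged 1 or more, and no replicate block was used. Benjamini-Hochberg adjustment was made over all genes tested. Library totals of 35512741 to 37537465 fragments were computed from the steps of 1197 genes, 98.7% of whose implied lengths lay within 0.1 of a whole number. With these totals, all values of the genes above 0 came to within 0.1 of whole fragments, and 721 genes were at 0 in all libraries. Shared windows of 100 bases came from GENCODE transcripts, and positions from annotation of GRCm38. Permutation tests were exact and two-sided. Python 3.11.15, numpy 2.4.6, pandas 2.3.3, scipy 1.17.1 and matplotlib 3.10.9 were used. The fit and the recovery were tested on simulated data. Alternatives covered scaling, low-value filter, pseudocount, limma-voom, replicate block, left-out replicates, GC content and fold threshold.

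Named singly were members past 2-fold, the most abundant and the 2 most changed members of each family in each direction, low members with at least 30 fragments in every library of a group and groups apart, and from each other list the 2 largest changes in each direction and genes past 2-fold. Remaining low members and regulators were chosen after their values were seen. Members and lists were chosen with earlier results of these data known. An item of the list of other conjugating enzymes is not reported here.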

Additional observations from a re-analysis of the deposited data

How the results depend on the processing

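The count of members lower at an adjusted p was 31 to 33 under every alternative, and that of members lower past 2-fold was 18 to 21 except at the lower fold threshold. Members higher past 2-fold, 0 in the main test, were 1 after rescaling to TPM, with a pseudocount of 0.1 and with limma-voom, and 2 at a fold change of at least 1.5. Members higher at an adjusted p were 4 among every gene above 0. The members' median log2 fold change, -0.95, was -1.07 with upper-quartile scaling, -1.10 when that scaling was joined to a pseudocount of 0.1, an alternative chosen with the data seen, -0.84 at a mean FPKM of at least 0.1, -0.60 over every gene above 0, since members with few fragments enter, and -1.11 with the GC trend removed. The fit with the GC trend removed covered 36 members, without Gsta5. Leaving out 1 replicate gave medians of -1.06 to -0.93, 18 to 19 members lower past 2-fold, 0 higher, 31 lower and 2 to 3 higher at an adjusted p. With upper-quartile scaling Gstt2 had a log2 fold change of -0.00, Gstt3 of -0.03 and Sult1c2 of -0.08, also with a pseudocount of 0.1. Sult1c2 had -0.17 with the GC trend removed and between -0.01, without control replicate 3 or MMK-1 replicate 3, and 0.08 with 1 replicate left out. None of these genes passed the main test, but Sult1c2 passed as lower with the GC trend removed (adjusted p of 0.039), as did Ugt1a6a (-0.29, 0.0065), and Gstt2 passed as higher without MMK-1 replicate 1 (0.16, 0.028). The causes were not tested. Upper-quartile scaling moved the median of all genes from 0.134 to 0.037. With a replicate block, 18 members were lower past 2-fold and 31 lower at an adjusted p, as without it. Deviations of libraries with the same replicate number correlated at 0.0253, -0.0400 and 0.0279, so no shared deviation by number was seen. Whether the samples were paired in culture cannot be told from these values, and the labels do not say. Members under the FPKM minimum had at most 85 fragments in a library, which limits what can be detected for them.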
